A study of Bos taurus with 8 samples.

Results

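The pyruvate dehydrogenase switch was followed in bovine granulosa cells through 10 genes: the 4 pyruvate dehydrogenase kinases PDK1, PDK2, PDK3 and PDK4, the 2 phosphatases PDP1 and PDP2, and 4 subunits of the enzyme complex, PDHA1, PDHB, DLAT and PDHX. The genes were taken for their roles, with earlier results of these data known. All 10 were measured, each by 1 probe set that carried no other gene's symbol, of 18010 named genes on the array. The samples were primary granulosa cells (Bos taurus) held without serum in alpha-MEM with FSH, IGF-1 and androstenedione. In the NEFA group (4 arrays) the medium renewed on day 2 and day 4 held a mix of non-esterified fatty acids, in the BSA group (4 arrays) it held bovine serum albumin, and RNA was taken on day 6. The labels do not give the fatty acids, their dose, or whether the 4 samples of a group came from separate animals, pools or cultures, so the p-values below set a difference only against the spread among these samples, part of which may be technical.

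The pyruvate dehydrogenase complex sits in the mitochondrial matrix and turns pyruvate into acetyl-CoA, the step that commits carbon from glucose to oxidation or to fat synthesis. The kinases phosphorylate the E1 alpha subunit and switch the complex off; the phosphatases remove the phosphate and switch it on. Of the kinases, PDK4 is best known for its induction by fasting and by fatty acids, through the PPAR receptors and FOXO1, in muscle, heart and liver. In the follicle, the granulosa cells around the oocyte, the cumulus, take up glucose and pass pyruvate and lactate to it.

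Of the 10 genes, PDK4 was 4.11-fold higher with NEFA and PDK3 was 1.28-fold lower, and the other 8 did not pass the test. Thus 1 kinase of 4 rose and another fell, while 0 of 2 phosphatases and 0 of 4 subunits passed (limma, adjusted p under 0.05; at an unadjusted p under 0.05, 0 phosphatases and 1 subunit, DLAT, which was lower). Over all named genes, 2.35% passed the same threshold (423 genes): 0.999% of all genes were called higher and 1.35% lower, so 42.6% of the calls were higher. At an unadjusted p under 0.05, 8.92% of all named genes were lower and 7.9% were higher, and the unadjusted counts given here and below are to be read beside these shares. With each array centred on its median the higher share was 29.6% of 429 genes, and the calls of PDK4 and PDK3 were kept. Values were lower with NEFA for 8 of the 10 genes, with a median change of -0.11 on the log2 scale, against 48.5% of all named genes and a median change of 0.005. All levels are log2 RMA values, changes are NEFA minus BSA with limma's standard error (SE) or 95% interval, and p-values are adjusted over all 24415 probe sets. Each gene is read by its own probes, so levels of different genes compare only roughly. They are set side by side only to call a gene dim and in the marker check below. In cultures measured in bulk, fewer cells of a type and less RNA per cell cannot be told apart.

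**Figure D1:**
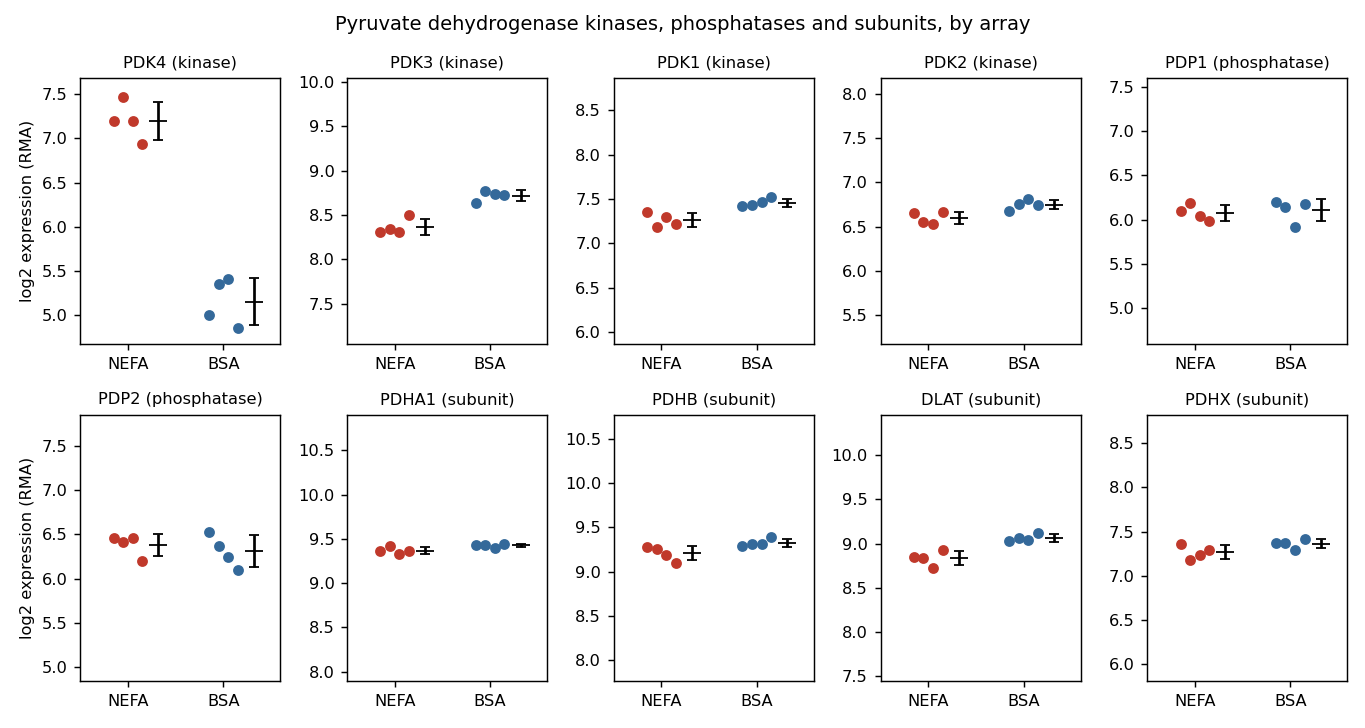
Log2 RMA expression of the 10 genes on each array, NEFA (red) left of BSA (blue), with the mean and SD of the 4 arrays of a group in black; every panel spans 3 log2 units. The NEFA arrays lie at least 1.52 above the BSA arrays for PDK4, and the points of the other genes lie within a much narrower band.

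The 8 arrays were alike in overall signal, with array medians from 4.78 to 4.86 and a Pearson correlation of at least 0.9914 between any 2 of them (taken over probe sets, which do not vary independently). The labelled cell type was checked against markers. Granulosa genes were present, among them INHBA (inhibin beta A, 11.6 on average), FOXL2 (7.91), CYP19A1 (7.77) and FSHR (7.57). The dimmest of the 9 on the list were AMH (5.54) and HSD17B1 (4.83), the latter within the range of the array medians. Averages over the 8 arrays ran from 1.73 (LYZ) to 4.69 (CD68) for the leukocyte list, from 2.91 to 3.44 for the oocyte list and from 2.61 to 4.02 (PLIN1) for the adipocyte list, all below the array medians. Of the stroma and smooth muscle list, 1 of 6 measured genes rose (DCN, 10.3 with NEFA and 9.77 with BSA), 1 fell (COL3A1, 10.3 with NEFA and 10.6 with BSA) and 4 did not pass. At an unadjusted p under 0.05, 4 of the 6 were higher and 1 lower, with a median change of 0.36; MYH11, TAGLN and DES, of smooth muscle, changed by 0.42, 0.37 and 0.34 (limma, adjusted p of MYH11 = 0.056). Levels of this list were summed as 2 to the power of each log2 value. The sum was 2806 to 3106 on the NEFA arrays and 2655 to 2829 on the BSA arrays. It mostly holds the brightest markers, COL3A1 and DCN, which moved in opposite directions, and says little of the smooth muscle genes. The dimmest marker was DES at 4.59, and no marker can be read as 0 on these arrays. Of the 4 endothelial markers VWF fell by 0.35 and the others did not pass. PECAM1, CDH5 and TEK changed by 0.07, 0.0125 and -0.0025. The summed level of the 4 was 57 to 67.4 with NEFA and 66.3 to 72.8 with BSA. Much of that sum is VWF, the brightest at 5.09, and PECAM1 was dim at 2.93. Of 3 theca markers none passed in limma (2 higher at an unadjusted p under 0.05), with INSL3 at 7.98 and LHCGR at 2.72. All 3 had higher mean values with NEFA, with a median change of 0.22. The largest change was 0.325 for CYP17A1, dim at 3.27 (limma, adjusted p = 0.28). Of 9 granulosa markers GATM rose by 0.36 and 8 did not pass. Among the 8 were CYP19A1 at 0.505 (limma, adjusted p = 0.17) and HSD17B1 at -0.75 (limma, adjusted p = 0.12). At an unadjusted p under 0.05, 2 of the 9 were higher and 2 lower. The part of these markers in the results below was not tested.

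PDK4 read 7.20, 7.46, 7.19 and 6.93 on the NEFA arrays, against 5.0, 5.35, 5.41 and 4.86 on the BSA arrays. The lowest NEFA array lay 1.52 above the highest BSA array, and within the groups the SD was 0.22 with NEFA and 0.27 with BSA (n = 4 each), the widest spread among the 10 genes. The rise was 2.04 on the log2 scale (SE 0.15, 95% interval 1.70 to 2.38; limma, Benjamini-Hochberg adjusted p = 5.94e-04), rank 4 among the rises of all 18010 genes. With any array left out in turn the change stayed between 1.94 and 2.13 and kept its call.

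PDK3, an isoform with a high specific activity that responds to hypoxia in other cells, moved the other way. Its levels were 8.31, 8.34, 8.31 and 8.50 with NEFA, against 8.63, 8.77, 8.74 and 8.73 with BSA. The groups did not overlap but came within 0.13 of each other, with NEFA 4 the highest of its group. PDK3 fell by 0.35 on the log2 scale (SE 0.063, 95% interval -0.50 to -0.21; limma, Benjamini-Hochberg adjusted p = 0.030). The call was near the threshold: it ended without BSA 2, 3 or 4 and without NEFA 1, 2 or 3, at changes from -0.35 to -0.33 and adjusted p from 0.080 to 0.092 (limma), and held without BSA 1 and without NEFA 4.

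PDK1, the kinase induced by the hypoxia factor HIF1A, read 7.35, 7.18, 7.30 and 7.22 with NEFA, against 7.42, 7.43, 7.46 and 7.52 with BSA. All NEFA arrays lay below all BSA arrays, by 0.07 at the nearest, and the change of -0.20 (SE 0.057) did not pass (limma, adjusted p = 0.13). PDK2, a broadly expressed isoform, read 6.65, 6.55, 6.53 and 6.66 with NEFA and 6.68, 6.76, 6.81 and 6.74 with BSA. Its groups were only 0.02 apart, and its change of -0.15 (95% interval -0.28 to -0.02) did not pass either (limma, adjusted p = 0.23). The groups of 4 of 4 kinases thus did not overlap, and 12.4% of all named genes showed no overlap.

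Whether the kinases changed by different amounts was asked within each array, by subtracting the log2 value of another gene from that of PDK4. The level of this difference depends on the probes, so only its shift between the groups is read. PDK4 minus PDK1 ran from -0.29 to 0.28 with NEFA and from -2.66 to -2.05 with BSA, a difference in change of 2.24. For PDK4 against PDK2 and PDK3 the differences in change were 2.19 and 2.39. Each of the 3 gave p = 0.0286 in an exact two-sided permutation test over the 8 arrays, the smallest that 4 against 4 arrays can give. These 3 were chosen with the rise of PDK4 known, and a further 9 after all values were seen. Against the 6 phosphatases and subunits, PDK4 shifted by 1.97 (PDP2) to 2.27 (DLAT), with the same exact p each. The change of PDK3 minus that of PDK2, which did not pass on its own, was -0.20 (exact permutation p = 0.0286), with PDK3 taken because it had passed. PDK3 against PDK1 gave -0.16 (exact permutation p = 0.143) and PDK1 against PDK2 gave -0.05 (exact permutation p = 0.486). Over the 12 comparisons an exact p of 0.0286 became 0.0343 after Benjamini-Hochberg adjustment, and the other adjusted values were 0.156 and 0.486. With its groups 1.52 apart, PDK4 was bound to give the smallest p against each of these genes. Those comparisons therefore add nothing to the limma call of PDK4. They also lower the adjusted value of PDK3 minus PDK2, which is not to be read as separate support.

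**Figure D2:**
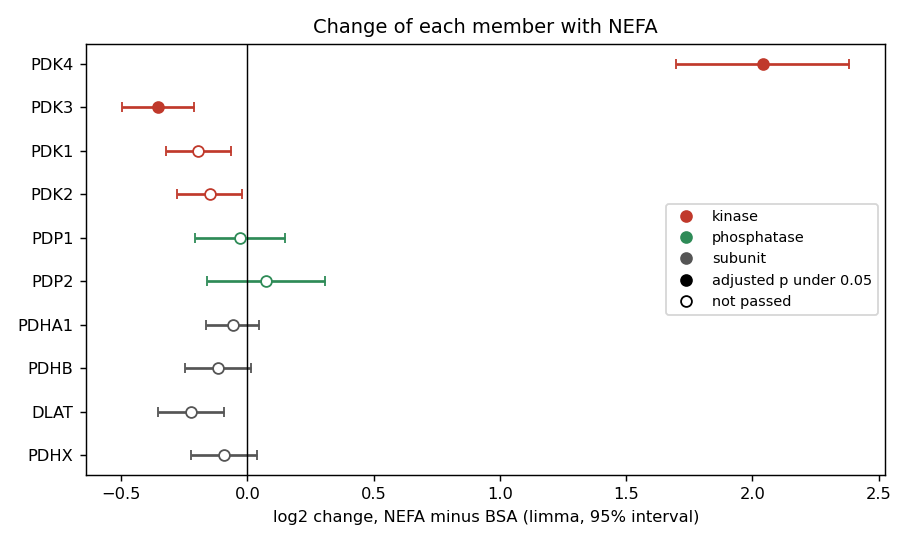
Log2 change of each gene, NEFA minus BSA, with limma's 95% interval; colours give the role, and filled points passed at an adjusted p under 0.05. PDK4 stands at 2.04 and the other 9 genes lie between -0.35 and 0.07.

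The phosphatases that oppose the kinases showed overlapping groups. PDP1, the calcium-activated isoform, read 6.10, 6.19, 6.04 and 5.98 with NEFA and 6.20, 6.14, 5.92 and 6.17 with BSA. Its change was -0.03, with a 95% interval of -0.21 to 0.15 (limma, adjusted p = 0.89). PDP2, an isoform known in rat tissues for its response to insulin and starvation, read 6.46, 6.41, 6.46 and 6.20 with NEFA and 6.53, 6.37, 6.24 and 6.10 with BSA. Its change was 0.07, with a 95% interval of -0.16 to 0.31 (limma, adjusted p = 0.78). These intervals hold changes of up to 0.21 down and 0.31 up, so small shifts of either phosphatase could not be detected with 4 arrays in a group.

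All 4 measured subunits had lower mean values with NEFA, by 0.06 to 0.23, and none passed in limma. DLAT, the E2 acetyltransferase at the core of the complex, read 8.85, 8.84, 8.73 and 8.93 with NEFA, against 9.03, 9.06, 9.04 and 9.12 with BSA. The groups did not overlap, with 0.10 between them, and the change was -0.23 (95% interval -0.36 to -0.09; limma, adjusted p = 0.098). DLAT passed when the dimmest 33.3% of the probe sets were left out (adjusted p = 0.044) and with trend and robust moderation (adjusted p = 0.0062, both limma). PDHA1, the E1 alpha subunit that the kinases phosphorylate, averaged 9.37 ± 0.04 with NEFA and 9.43 ± 0.02 with BSA (SD, n = 4 each). Its change of -0.06 had a 95% interval of -0.16 to 0.05, and the groups overlapped. PDHB, the E1 beta subunit, averaged 9.21 ± 0.08 with NEFA and 9.33 ± 0.04 with BSA, with 0.01 between the groups and a change of -0.12 (limma, adjusted p = 0.36). PDHX, which binds the E3 subunit to the core, averaged 7.27 ± 0.08 with NEFA and 7.36 ± 0.05 with BSA, with overlapping groups and a change of -0.09 (limma, adjusted p = 0.48).

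Around the switch, 47 of 51 listed genes of pyruvate and acetyl-CoA handling, sister complexes and PDK4 regulation were analysed. Of the 47, 6 fell, 0 rose and 41 did not pass in limma (20 lower, or 42.6%, and 4 higher, or 8.51%, at an unadjusted p under 0.05, against 8.92% and 7.9% of all named genes). With BSA 2, BSA 3 or NEFA 3 left out, 3 fell, and the 3 called in each case were ACSS2, ACACA and SREBF1. Values were lower for 35 of the 47, with a median change of -0.13. Many of the 47 were brighter than the array medians, while the shares of all named genes include dim ones. Shares among genes of like brightness were not taken. The lists were drawn up with earlier results of these data known.

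Among the partners of the complex, MPC1 fell and 5 of 6 measured genes did not pass. Of the 6, 3 were lower (50%) and 0 higher at an unadjusted p under 0.05. MPC1, a subunit of the carrier that brings pyruvate into mitochondria, read 7.73, 7.67, 7.71 and 7.59 with NEFA, against 8.09, 7.99, 8.0 and 7.88 with BSA. All NEFA arrays lay below all BSA arrays by at least 0.15, and the gene fell by 0.32 on the log2 scale (SE 0.062; limma, adjusted p = 0.042). The call held without BSA 4 (adjusted p = 0.0497) and ended without any other array, at changes from -0.33 to -0.28 and adjusted p from 0.084 to 0.113, and with a further quantile normalization (adjusted p = 0.052, all limma). PDPR, the regulatory subunit of the PDP1 phosphatase, averaged 7.25 ± 0.08 with NEFA and 7.46 ± 0.06 with BSA (SD, n = 4 each), a change of -0.22 that did not pass (limma, adjusted p = 0.12). DLD, the E3 subunit shared with the sister complexes, changed by -0.08 (limma, adjusted p = 0.46). The list's median change was -0.15.

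Of 11 measured genes that supply pyruvate or use it elsewhere, 0 passed in limma (6 lower and 1 higher at an unadjusted p under 0.05, or 54.5% and 9.09%), and the median change was -0.13. The gene of smallest p was GPT2, the mitochondrial alanine aminotransferase that converts pyruvate and alanine into each other, at 6.59 ± 0.12 with NEFA and 6.87 ± 0.05 with BSA (SD, n = 4 each; limma, adjusted p = 0.088).

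Downstream of the complex, 3 of 8 genes of acetyl-CoA use and export fell, 5 did not pass, and the list median was -0.25. Of the 8, 6 were lower (75%) and 1 higher (12.5%) at an unadjusted p under 0.05. ACSS2, which makes acetyl-CoA from acetate in the cytosol, read 8.20, 8.10, 8.11 and 8.20 with NEFA, against 8.90, 8.79, 8.83 and 8.91 with BSA. ACACA, the acetyl-CoA carboxylase that commits acetyl-CoA to fat synthesis, read 6.44, 6.51, 6.57 and 6.36 with NEFA, against 7.08, 7.10, 7.13 and 7.10 with BSA. For both genes the groups were at least 0.51 apart. ACSS2 fell by 0.71 (SE 0.054; limma, adjusted p = 7.07e-04) and ACACA fell by 0.63 (SE 0.058; limma, adjusted p = 0.0017). ACLY, which cleaves exported citrate into acetyl-CoA, fell by 0.28 (9.47 ± 0.05 with NEFA and 9.75 ± 0.04 with BSA; limma, adjusted p = 0.032). Its call ended with any of the 8 arrays left out, at changes from -0.30 to -0.26 and adjusted p from 0.065 to 0.094 (limma).

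Of 7 genes of the sister dehydrogenase complexes, which are built on the same plan, BCKDHB fell, 6 did not pass, and the median change was -0.19. Of the 7, 3 were lower (42.9%) and 0 higher at an unadjusted p under 0.05. BCKDHB, the E1 beta subunit for branched-chain keto acids, read 6.62, 6.91, 6.80 and 6.83 with NEFA, against 7.15, 7.22, 7.30 and 7.30 with BSA. It fell by 0.45 (SE 0.073; limma, adjusted p = 0.021), and its call ended without BSA 2, BSA 3, BSA 4 or NEFA 3, at changes from -0.46 to -0.43 and adjusted p from 0.061 to 0.071 (limma). The kinase of that complex, BCKDK, was listed with it and changed by -0.02.

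**Figure D3:**
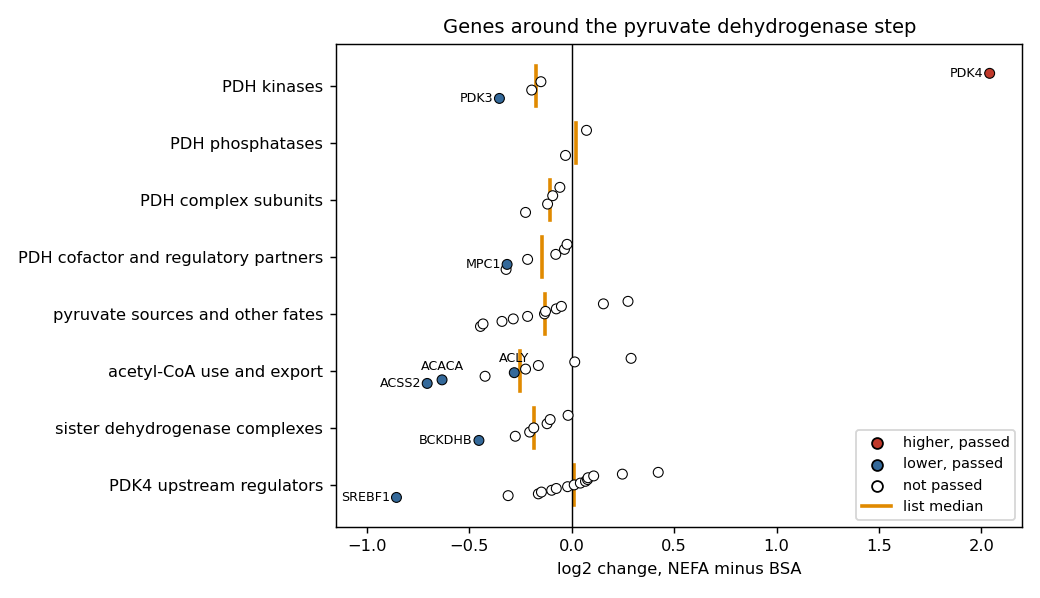
Log2 change, NEFA minus BSA, of the 57 measured genes in the 8 lists, a point for each gene, with list medians as orange bars; genes past an adjusted p of 0.05 are coloured (red higher, blue lower) and named. PDK4 is the coloured point above 0, and the 7 coloured points below 0 are PDK3, MPC1, ACLY, ACACA, ACSS2, BCKDHB and SREBF1.

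Of 15 genes known or proposed to act upstream of PDK4, 14 did not pass and SREBF1, which drives fatty acid synthesis genes, fell by 0.86 (SE 0.077; limma, adjusted p = 0.0017). Its values ran from 4.90 to 5.19 with NEFA and from 5.86 to 6.03 with BSA, 0.67 apart. Of the 15, 2 were lower and 2 higher at an unadjusted p under 0.05, or 13.3% each. The largest rise of the list was that of NR4A1, 0.42 with groups 0.18 apart. It did not pass (limma, adjusted p = 0.055) but passed in some of the alternatives given below. The receptor genes PPARA, PPARD and PPARG changed by -0.31, -0.10 and 0.04. PPARA, the fatty acid receptor, averaged 6.21 ± 0.09 with NEFA and 6.52 ± 0.17 with BSA, groups that did not overlap, and did not pass (limma, adjusted p = 0.14). FOXO1, a transcription factor that insulin restrains, changed by 0.01 with a 95% interval of -0.12 to 0.14. The coactivator PPARGC1A was dim, at 2.70 with NEFA and 2.60 with BSA, so its change of 0.11 says little, and its partner ESRRA changed by -0.16 (limma, adjusted p = 0.38). These are transcript levels; the activity of these factors was not measured here.

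The genes whose levels followed PDK4 most closely over the 8 arrays were FMOD, PAPSS2, SLC27A1, PLBD1 and FBXO32, with Pearson r from 0.988 to 0.994. The 8 arrays form 2 groups, so this r mostly holds the difference between NEFA and BSA, and 262 genes reached an r of at least 0.9. After each group's mean was taken off, r with PDK4 was 0.96 for PAPSS2, which makes the sulphate donor for proteoglycans, 0.85 for the proteoglycan FMOD, 0.73 for both the ubiquitin ligase FBXO32 and the phospholipase-like PLBD1, and 0.71 for the fatty acid transporter SLC27A1, over the same 8 arrays. The genes were picked for a high r, so these values are a description. Within the groups PDK4 was higher on NEFA 2 and lower on NEFA 4, and higher on BSA 2 and BSA 3 than on BSA 1 and BSA 4. Their changes were smaller than that of PDK4, from 0.41 for FMOD to 0.76 for SLC27A1. By Spearman's rho, 12 genes reached at least the fifth highest value, ties kept, and 1 of the 5 genes of highest Pearson r, PAPSS2, was among them.

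**Figure D4:**
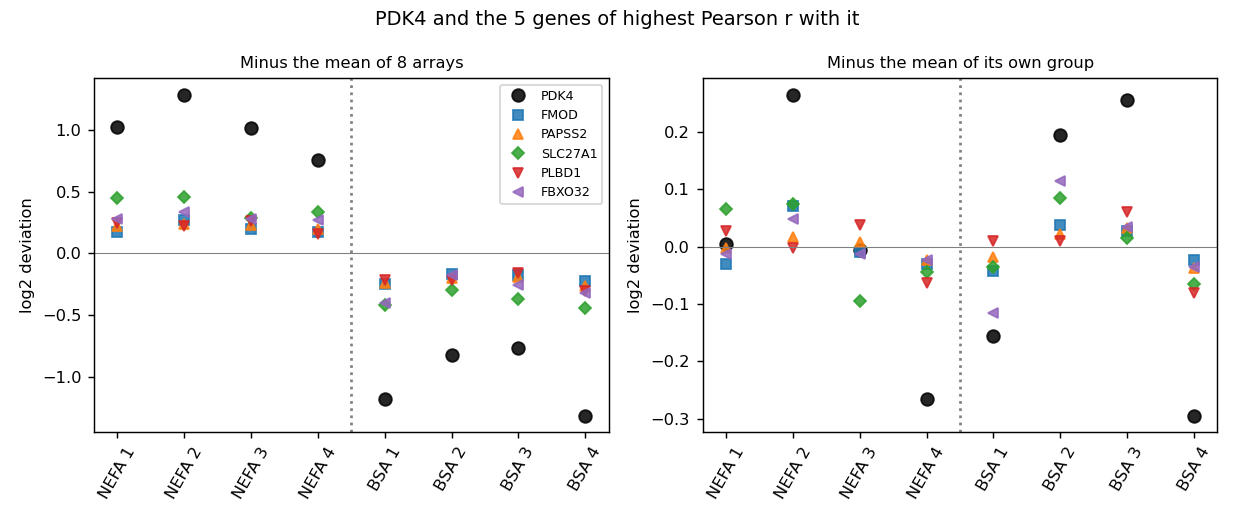
Log2 deviation of PDK4 (black circles) and of the 5 genes of highest Pearson r with it on each array, NEFA left of BSA: from the gene's mean of all 8 arrays on the left, from the mean of its own group on the right. PDK4 shows the widest deviations in both panels, and the 5 other genes rose by 0.41 to 0.76.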

How the data were processed

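Total RNA of 8 samples (4 NEFA, 4 BSA) was labelled with biotin and hybridised to expression arrays, per the labels. The authors deposited log2 values from RMA, a step named in the submitters' processing notes. RMA equalises the arrays' distributions, so a change shared by all transcripts would not show, and folds of dim probe sets come out too small. RMA's software and the genome build were not given in the sources used here. By the platform annotation, 18457 probe sets had 1 symbol, 688 several and 5270 none; symbols were brought up to date from RefSeq (ARS-UCD2.0) by gene ID, which matched 17996. The brightest probe set over the 8 arrays stood for a gene.

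The NEFA and BSA arrays were compared with limma 3.58.1 in R 4.3.3 (lmFit, eBayes, group as the only term) over all 24415 probe sets, with Benjamini-Hochberg adjustment and a threshold of 0.05; the script was checked on data of known answer. Exact permutation tests used scipy 1.17.1. Arrays give no read depth, and their number limits the precision. The members and lists were chosen with earlier results of these data known. All 10 members were named, with the list genes past the threshold (or of smallest p), 9 measured PDK4 regulators and partners in any case, and the 5 genes most like PDK4. Markers, INSL3, BCKDK, CRAT and NR4A1 fall outside that rule. Alternatives were a replicate block, a further quantile normalization, array centring, a filter on dim probe sets, trend and robust moderation, array weights, averaging a gene's probe sets, and leaving out each array.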

Additional observations from a re-analysis of the deposited data

Results flagged for a closer look

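In groups of 4 arrays, the highest or lowest array lay apart from the other 3 (by Dixon's ratio of the gap to the group's range, at its 95% critical value) in 3 of 60 groups of 30 genes; chance marks about 1 in 20 groups. PDK3 was 8.50 on NEFA 4, against 8.31, 8.31 and 8.34 on the other NEFA arrays, and without NEFA 4 its change was -0.40 (limma, adjusted p = 0.023). DLD was 8.89 on BSA 2, against 8.81, 8.82 and 8.82 on the other BSA arrays. FBXO32 was 7.58 on NEFA 2, against 7.51, 7.52 and 7.52 on the other NEFA arrays.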

How the results depend on the processing

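In the 14 alternatives other than the replicate block, PDK4 and PDK3 kept their direction, and PDK4 kept its call in all 14 (1.94 to 2.13; limma adjusted p from 5.76e-06 to 0.0045). With trend and robust moderation PDK1 (-0.20, adjusted p = 0.043) and DLAT (-0.23, adjusted p = 0.0062) passed, so 3 of the 10 fell; with the dimmest 33.3% of probe sets left out DLAT passed (-0.23, adjusted p = 0.044) and 2 fell. With 1 array left out, and thus fewer samples, PDK3 ranged from -0.40 to -0.33 and the count of falls among the 10 from 0 to 1. Of the other 47 genes, 15 fell with trend and robust moderation, and 3 to 4 with an array left out. The 15 included PDPR (adjusted p = 0.032), GPT2 (adjusted p = 0.022) and PPARA (adjusted p = 0.047, all limma). GPT2 also passed with the dim filter (limma, adjusted p = 0.044). With array weights, the dim filter, trend and robust moderation or quantile normalization, 2 rose: CRAT, a carnitine acetyltransferase (0.29 and adjusted p = 0.052 without these), and NR4A1, an orphan nuclear receptor (0.42, adjusted p = 0.055). Over all genes, 423 passed, against 1097 with trend and robust moderation, 790 with the dim filter and 164 to 260 with an array left out. Under Spearman's rho 1 of the 5 genes most like PDK4 was kept.

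The replicate numbers are shared by both groups, and the labels do not say whether same-numbered arrays belong together. The r of deviations between same-numbered arrays was -0.014, 0.047, 0.041 and 0.073 for numbers 1 to 4. NEFA 2, NEFA 3 and NEFA 4 correlated best with the BSA array of their own number. NEFA 1 correlated best with BSA 2 (0.051), and BSA 1 with NEFA 4 (0.056). Such small values cannot decide whether the arrays were paired. With the replicate number as a block, 77 genes passed over all, PDK4 among them, PDK3 did not (-0.35, adjusted p = 0.11), 0 of the 10 fell, and 3 of the other 47 fell. Exact tests with an array left out cannot reach 0.05 and were not run.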
